A study of Mus musculus with 10 samples.

Results

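Toll-like receptors are the germline-encoded sensors with which neutrophils and monocytes recognise microbial lipids, proteins and nucleic acids. The genes described here are 8 receptors, the co-receptor gene Cd14 and the adaptor gene Myd88, which were matched by symbol and are 10 of the 29893 genes summed from the deposited transcript tables. Tlr1, Tlr2, Tlr4 and Tlr6 encode receptors of the cell surface. Tlr7, Tlr8, Tlr9 and Tlr13 encode receptors of the endosome.

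TLR2 pairs with TLR1 or TLR6 and senses bacterial lipopeptides, while TLR4 senses lipopolysaccharide that CD14, a lipid-anchored surface protein, hands on to it. TLR7 senses single-stranded RNA, TLR9 unmethylated CpG DNA and TLR13 a stretch of bacterial ribosomal RNA in the mouse, where TLR8 is regarded as a weak sensor. All 8 receptors signal through MYD88, which recruits IRAK kinases and leads to NF-kB and to the transcription of inflammatory cytokines.

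The cells were neutrophils and CCR2+ monocytes sorted by flow cytometry from lungs of NOD/scid mice, an immunodeficient strain that lacks mature B and T cells. The mice carried either HCl-001, a highly metastatic breast tumour labelled TN1, or HCl-002, a low metastatic one labelled TN2, and were sampled at end point; no group without a tumour was analysed here, and the labels give no age. Neutrophils and monocytes each have 2 TN1 libraries (tag_191 and tag_482) and 3 TN2 libraries (tag_367, tag_706 and tag_1341), 10 in all. The labels do not say that the tags are separate animals, so p-values measure the spread between these samples, which may be technical.

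Depth ranged from 7239218 to 11311370 estimated counts for a library, with 5 counts or more for 8851 to 15211 genes. The libraries of tag_482 had the fewest such genes in either cell type, and mitochondrially encoded genes took 19.9% of TPM in its monocytes, against 4.82% to 5.82% in the other monocyte libraries. The sorted labels matched their markers: Csf3r was at 2408 to 2796 TPM in neutrophils and 42.9 to 161 TPM in monocytes, and Ccr2 at 128 to 340 TPM in monocytes and 0.905 to 18.4 TPM in neutrophils. Neutrophil TN2 tag_1341 had the highest Ccr2 and also 34.6 TPM of the monocyte gene F13a1, against at most 1.59 TPM in the other neutrophil libraries. The 10 neutrophil markers summed to 8041 TPM in monocyte TN2 tag_706 and to 175 to 2509 TPM in the other monocyte libraries, against at least 128130 TPM in neutrophils. The 10 markers of T and natural killer cells summed to 17.6 to 81.8 TPM in neutrophils and 46.9 to 655 TPM in monocytes, highest in TN2 tag_706. Of that list Cd3e was at 0 throughout. Cd3d went the other way from the sum, at a mean of 32.4 CPM in neutrophils and 3.73 CPM in monocytes, without overlap.

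Levels of different genes are compared here in TPM, which is scaled for transcript length. In neutrophils Cd14 had the highest level, 16989.8 to 28817 TPM with a median of 21299, and Tlr2 was the highest receptor at a median of 330.4 TPM. Myd88 followed at a median of 327 TPM, within the range of Tlr2, and Tlr13 at 166 TPM, below every Myd88 value. Tlr6 had a median of 75.3 TPM, Tlr4 28.9, Tlr1 25.5, Tlr7 17.0 and Tlr8 12.6, and each of these overlapped its neighbour in the order. Tlr9 closed the order with 0 to 0.453 TPM, below every Tlr8 value.

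In monocytes Cd14 (3199.7 to 7463 TPM), Tlr2 (214 to 369 TPM) and Myd88 (117 to 176 TPM) again led. Tlr13 came next at a median of 68.4 TPM, overlapping Myd88. Tlr7 (46.5 TPM) and Tlr8 (43.9 TPM) then stood before Tlr4 (23.3 TPM), Tlr6 (12.4 TPM) and Tlr1 (8.79 TPM), with overlap between each pair of neighbours. Tlr9 was lowest at 1.63 to 5.29 TPM, and its range overlapped that of Tlr1.

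**Figure D1:**
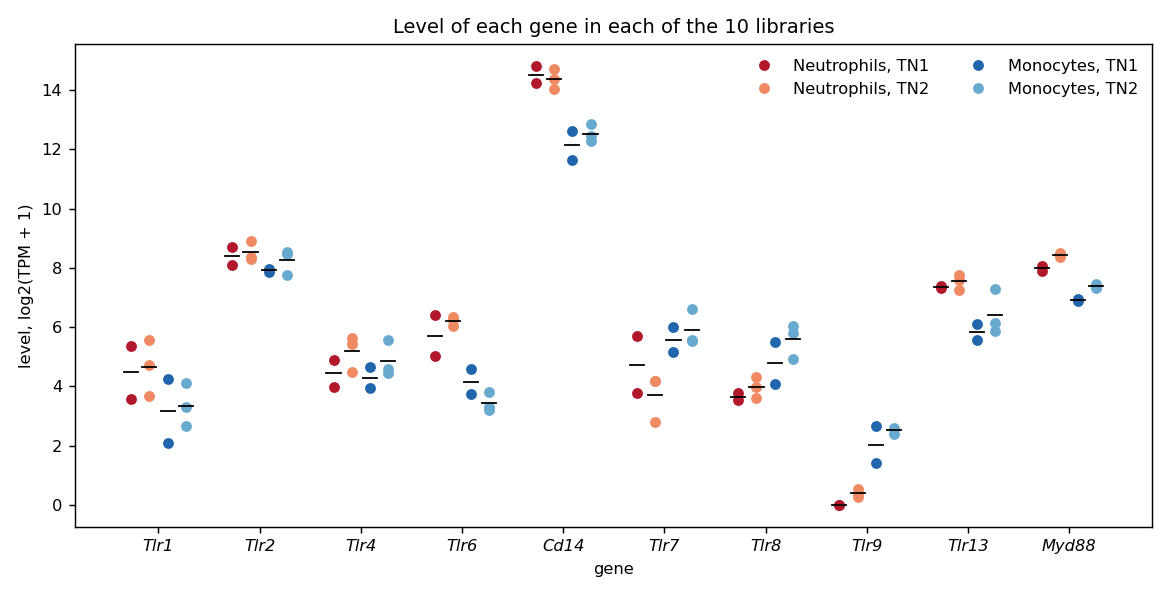
Level of the 10 genes on the log2(TPM + 1) scale, with a point for each library and a line for the mean of each cell type and tumour. Cd14 is highest in all 10 libraries, and Tlr9 is at 0 in both TN1 neutrophil libraries and at 1.63 to 5.29 TPM in monocytes.

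Upstream sequences are shown for Tlr2, Tlr6, Myd88 and Tlr9, as examples of members described below whose windows hold matches to motifs of factors of this pathway or of myeloid cells. They come from RefSeq (GRCm38.p6), start 250 bases before a RefSeq start site and are printed 5′ to 3′ on the strand of the gene, with bases of GENCODE exons left out. Capitals mark a match on either strand to GGGANNNNCC (NF-kB like), GAAANNGAAA (interferon response), TTGCNNAA (C/EBP) or GAGGAA (PU.1 like).
Tlr2, chr3:83841768-83841858, minus strand: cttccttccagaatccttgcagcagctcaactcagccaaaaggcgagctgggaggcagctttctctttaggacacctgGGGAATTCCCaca
Tlr6, chr5:64959167-64959416, minus strand: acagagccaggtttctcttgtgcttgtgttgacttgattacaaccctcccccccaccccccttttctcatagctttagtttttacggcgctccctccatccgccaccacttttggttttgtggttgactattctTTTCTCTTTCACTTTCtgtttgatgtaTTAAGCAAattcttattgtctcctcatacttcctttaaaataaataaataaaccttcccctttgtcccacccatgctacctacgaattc
Myd88, chr9:119340042-119340268, minus strand: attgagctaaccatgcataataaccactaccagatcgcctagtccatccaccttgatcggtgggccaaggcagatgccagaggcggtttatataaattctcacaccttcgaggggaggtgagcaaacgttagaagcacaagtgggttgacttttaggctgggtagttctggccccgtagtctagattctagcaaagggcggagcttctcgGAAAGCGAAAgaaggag
Tlr9, chr9:106222348-106222597, plus strand: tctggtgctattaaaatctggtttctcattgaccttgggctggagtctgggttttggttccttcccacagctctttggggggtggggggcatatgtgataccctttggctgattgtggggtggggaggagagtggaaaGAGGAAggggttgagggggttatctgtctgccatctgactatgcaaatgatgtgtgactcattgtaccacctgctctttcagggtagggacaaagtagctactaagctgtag

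Over all 32851 promoter windows of 250 bases in the same table, 17.6% hold the NF-kB like letters, 2.98% the interferon response letters, 9.56% the C/EBP letters and 23.3% the PU.1 like letters. Tlr2 has the NF-kB like letters, a palindrome, at 172 bases before its start. Myd88 has the interferon response letters at 40 bases. Tlr6 has a pair of overlapping interferon response matches at 116 and 110 bases and a C/EBP match at 89 bases in this window. The window of its other RefSeq start, which reaches upstream of the GENCODE gene, holds no match. The printed windows of Tlr6 and Myd88 lie within the GENCODE spans of these genes. Tlr9 has the PU.1 like letters at 112 bases. Windows not printed here also hold matches: the PU.1 like letters are at 23 bases in Tlr1, at 83 in Tlr13 and at 77 in Tlr8, and Tlr8 has the C/EBP letters at 29. The table held 7 of the 10 genes, and these matches are a description of letters, not of binding.

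The question asked first was how the receptors differ between the cell types. In CPM, a count relative to the library size after TMM scaling, 7 of the 10 genes were lower in monocytes than in neutrophils and Tlr9 was higher (edgeR's quasi-likelihood test, Benjamini-Hochberg adjusted p under 0.05). Of all 13384 genes tested, 12.4% were called lower in monocytes and 15.5% higher. All 4 surface receptors, Cd14, Tlr13 and Myd88 made up the lower genes, while Tlr7 and Tlr8 did not pass. The median log2 difference of the 10 genes was -1.51, of the surface receptors -1.66 and of the endosomal receptors 1.02, against 0.46 over all genes tested. All 10 genes passed the filter on low counts, but Tlr9 did so only through its monocyte counts, so its call is given as a description and supports nothing. The libraries of the cell types did not overlap in CPM for 5 of the 10 genes on the lower side and for Tlr9 on the higher side, where 12.6% and 16% of all genes had no overlap. In bulk RNA of sorted cells, fewer cells of a type and less RNA per cell cannot be told apart.

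The counts of 7 lower and 1 higher became 7 and 2, with Tlr7 added, without neutrophil TN2 tag_1341, which had the most Ccr2 and F13a1, and likewise without monocyte TN2 tag_706, which had the most neutrophil marker transcripts. Without neutrophil TN1 tag_191 or without monocyte TN1 tag_482 the lower genes numbered 4, and those that lost the call were Tlr1, Tlr2 and Tlr4.

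Among the surface receptors Tlr6, the partner of TLR2 for diacylated lipopeptides, had the largest difference. The overlapping interferon response letters are in a window within its GENCODE span, before a RefSeq start site. The gene (chromosome 5, 64952031 to 64960097, GRCm38) reached 231 and 87.1 CPM in TN1 neutrophils and 185, 243 and 218 CPM in TN2 neutrophils. In monocytes it was at 21.7 and 46.8 CPM (TN1) and at 20.4, 11.9 and 12.6 CPM (TN2). Every neutrophil library was above every monocyte library, and the tag_482 libraries were nearest to each other. Tlr6 was 3.03 ± 0.37 (SE, n = 5 against 5) lower on the log2 scale in monocytes (edgeR log2 difference -3.03, adjusted p = 0.000411).

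Tlr1, the partner of TLR2 for triacylated lipopeptides, lies next to Tlr6 (chromosome 5, 64924679 to 64933563). Neutrophils had 112 and 31.2 CPM (TN1) and 116, 78.7 and 39.7 CPM (TN2), and monocytes 31.9 and 6.74 CPM (TN1) and 26.0, 12.3 and 8.23 CPM (TN2). The lowest neutrophil library, TN1 tag_482, was just under the highest monocyte library, TN1 tag_191. The edgeR log2 difference of Tlr1 was -2.11 ± 0.60 (SE), with an adjusted p of 0.0259 that rose to 0.0963 without neutrophil TN1 tag_191, 0.0588 without neutrophil TN2 tag_367, 0.0954 without monocyte TN1 tag_482 and 0.0502 without monocyte TN2 tag_1341.

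Transcripts of Tlr1 and Tlr6 share 603 sequences of 31 bases, the length kallisto's index uses by default, which is 21.9% of those of Tlr1 and 16.6% of those of Tlr6, so reads can be split between them. The summed CPM of Tlr1 and Tlr6 was 118 to 343 in neutrophils and 20.8 to 53.6 in monocytes. Monocyte libraries TN1 tag_191 and TN1 tag_482 had nearly the same sum, 53.6 and 53.5 CPM, of which Tlr1 took 59.5% in the first and 12.6% in the second. The sum of the pair therefore separated the cell types in every library, while the split between its genes varied among libraries of one group.

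Tlr2, the shared partner, whose upstream window holds the NF-kB like letters, lies at chromosome 3, 83836272 to 83841767. Its level was 1342 and 883 CPM in TN1 and 903, 1169 and 1879.8 CPM in TN2 neutrophils, and 472 and 601 CPM in TN1 and 657, 342 and 662 CPM in TN2 monocytes. All neutrophil libraries were above all monocyte libraries in CPM, whereas in TPM the ranges overlapped (271 to 481 against 214 to 369). For Tlr2 the edgeR log2 difference was -1.15 ± 0.29 (SE, adjusted p = 0.0163). It was not called without neutrophil TN1 tag_191 (adjusted p = 0.0570), monocyte TN1 tag_191 (0.0838), monocyte TN1 tag_482 (0.0614) or both tag_482 libraries (0.0547).

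Tlr4, the lipopolysaccharide receptor, lies at chromosome 4, 66827584 to 66930284. It was at 106 and 63.9 CPM in TN1 neutrophils, 84.5, 154 and 231 CPM in TN2 neutrophils, 55.2 and 39.8 CPM in TN1 monocytes and 43.5, 44.0 and 71.7 CPM in TN2 monocytes. Neutrophil TN1 tag_482 fell within the monocyte range. Tlr4 had an edgeR log2 difference of -1.20 ± 0.33 (SE, adjusted p = 0.0240), and the call was lost without neutrophil TN1 tag_191 (0.0768), monocyte TN1 tag_191 (0.0507), monocyte TN1 tag_482 (0.102), monocyte TN2 tag_367 (0.0529) or both tag_482 libraries (0.0805).

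Neutrophil levels of Cd14 (chromosome 18, 36725067 to 36726798) were 44884 and 30380.3 CPM in TN1 and 23742, 45468 and 40455 CPM in TN2. Monocytes had 6266 and 3747 CPM (TN1) and 4936, 3827 and 6489 CPM (TN2), all below the lowest neutrophil library. For Cd14 the edgeR log2 difference was -2.88 ± 0.32 (SE, adjusted p = 0.000276), and without monocyte TN2 tag_706, which held the most neutrophil marker transcripts, it was -2.79 (adjusted p = 0.000236).

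Of the 4 endosomal receptors 1 was lower in monocytes, 1 was higher and 2 did not pass. Tlr13 (chromosome X, 106143204 to 106160493) was lower in monocytes: 697 and 737 CPM in TN1 and 605, 1034 and 1037 CPM in TN2 neutrophils against 192 and 151 CPM in TN1 and 170.5, 125 and 379 CPM in TN2 monocytes. Monocyte TN2 tag_1341 was the highest of its cell type and still below all neutrophils in CPM, though not in TPM (154 against a lowest neutrophil value of 153). The edgeR log2 difference of Tlr13 was -2.03 ± 0.34 (SE, adjusted p = 0.00183), and it was -2.37 (adjusted p = 0.000614) without monocyte TN2 tag_1341. The 10 alveolar macrophage markers summed to 11188 TPM in that library, where 4 of them were listed at 0. They summed to 181 to 6193 TPM in the other monocyte libraries and to 222 to 1249 TPM in neutrophils. Of that list Chil3 averaged 3084 CPM over monocytes and 989 CPM over neutrophils. Fabp5, Mrc1, Car4, Ear2 and Fabp4 averaged 51.7, 48.2, 29.2, 18.7 and 9.47 CPM over monocytes. The part of the alveolar macrophage markers in the Tlr13 level of monocyte TN2 tag_1341 was not tested.

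Tlr9 (chromosome 9, 106222598 to 106226883) had 0 estimated counts in both TN1 neutrophil libraries and 12, 6 and 9 counts in TN2 neutrophils tag_367, tag_706 and tag_1341. Monocytes had 117 and 38 counts (TN1) and 149, 133 and 112 counts (TN2). No neutrophil library reached the level of a monocyte library, 0 to 1.52 against 4.57 to 12.6 CPM. Among TN2 libraries the pooled level was 7.81 times higher in monocytes, 9.63 against 1.23 CPM. Among TN1 libraries it was at least 43.4-fold higher, taking a floor of 3 counts over both neutrophil libraries. Tlr9 passed the filter on low counts only through its monocyte libraries, so its edgeR call, counted above, is a description and supports nothing. Plasmacytoid dendritic cells also express Tlr9. The 10 markers of that cell type summed to 565 to 813 TPM in monocytes and 39.7 to 152 TPM in neutrophils. Klk1 and Pacsin1 were listed at 0 in all neutrophil libraries. In monocytes, 3 and 6 (TN1 tag_191, tag_482) and 3, 0 and 5 (TN2 tag_367, tag_706, tag_1341) of the 10 were at 0. Klk1 and Ly6d were above 0 in monocytes only in TN2 tag_706 (6.88 and 228 TPM). Siglech was at 18.8 TPM there and at most 0.627 TPM in the other monocyte libraries. Bst2, on the same list, averaged 206 CPM over monocytes and 38.6 CPM over neutrophils. The 10 markers of conventional dendritic cells summed to 161 to 1040.0 TPM in monocytes and 1.33 to 9.13 TPM in neutrophils. The 10 markers of epithelium, endothelium and stroma were also highest in monocyte TN2 tag_706, at 763 TPM. They summed to 10.5 to 175 TPM in the other monocyte libraries and 1.17 to 109 TPM in neutrophils. The part of these cell types in the difference of Tlr9, or in the Klk1 and Ly6d levels, was not tested.

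Tlr7 (chromosome X, 167304929 to 167330558) had 12.9 and 37.0 CPM in TN1 and 12.4, 19.1 and 33.7 CPM in TN2 neutrophils, and 52.2 and 58.7 CPM in TN1 and 63.4, 29.5 and 102 CPM in TN2 monocytes. Neutrophil libraries TN1 tag_482 and TN2 tag_1341 were above the lowest monocyte library, TN2 tag_706. The edgeR log2 difference of Tlr7 was 1.36 ± 0.47 (SE) and missed the threshold (adjusted p = 0.0547). It was called without neutrophil TN1 tag_482 (adjusted p = 0.0369), neutrophil TN2 tag_1341 (0.0390) or monocyte TN2 tag_706 (0.0278), and by DESeq2 (0.0250) and limma-voom (0.0457).

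Tlr8 (chromosome X, 167242696 to 167264329), next to Tlr7, had 23.3 and 39.5 CPM in TN1 and 19.4, 33.8 and 62.4 CPM in TN2 neutrophils, and 67.5 and 36.2 CPM in TN1 and 66.7, 33.3 and 80.2 CPM in TN2 monocytes. The ranges overlapped over most of their length. With edgeR, Tlr8 differed by 0.68 ± 0.42 on the log2 scale (SE, adjusted p = 0.248).

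Levels of Myd88 (chromosome 9, 119335934 to 119341411) were 532 and 486 CPM in TN1 neutrophils and 654, 720.4 and 881 CPM in TN2 neutrophils. The monocyte libraries lay close together at 148 and 184 CPM (TN1) and 187, 178 and 182 CPM (TN2). The log2 difference of -1.83 ± 0.18 (SE, edgeR adjusted p = 0.000157) had the smallest SE of the 10 genes. Exons of Myd88 share 290 bases with Acaa1a on the opposite strand, and the reads carry no strand.

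The calls differed between tools and scales. With limma-trend on log2(TPM + 1), which changes both the test and the scale, 4532 genes were higher and 1198 lower in monocytes, against 2070 and 1663 with edgeR on counts, and the median log2 difference of all genes moved from 0.46 to 0.62. edgeR on counts scaled from TPM by mean effective length called 1964 genes higher and 1649 lower, with 1 and 6 of the 10 members among them. limma-voom on counts called 2754 higher and 1988 lower, with 2 and 7 members. The parts of the test and of the scale in the limma-trend result were not separated further. With limma-trend Tlr7 (1.52, adjusted p = 0.0203) and Tlr8 (1.39, adjusted p = 0.00918) were called higher, as was Tlr9, whose call is a description only. Tlr6 (-2.17), Cd14 (-2.12), Tlr13 (-1.32) and Myd88 (-1.06) stayed lower, and Tlr1 (-1.31, adjusted p = 0.0913), Tlr2 (-0.38, adjusted p = 0.215) and Tlr4 (-0.23, adjusted p = 0.647) did not pass. Taken from the median of all genes, the difference of Tlr4 was -1.66 with edgeR and -0.85 with limma-trend, and that of Tlr8 was 0.22 and 0.77.

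**Figure D2:**
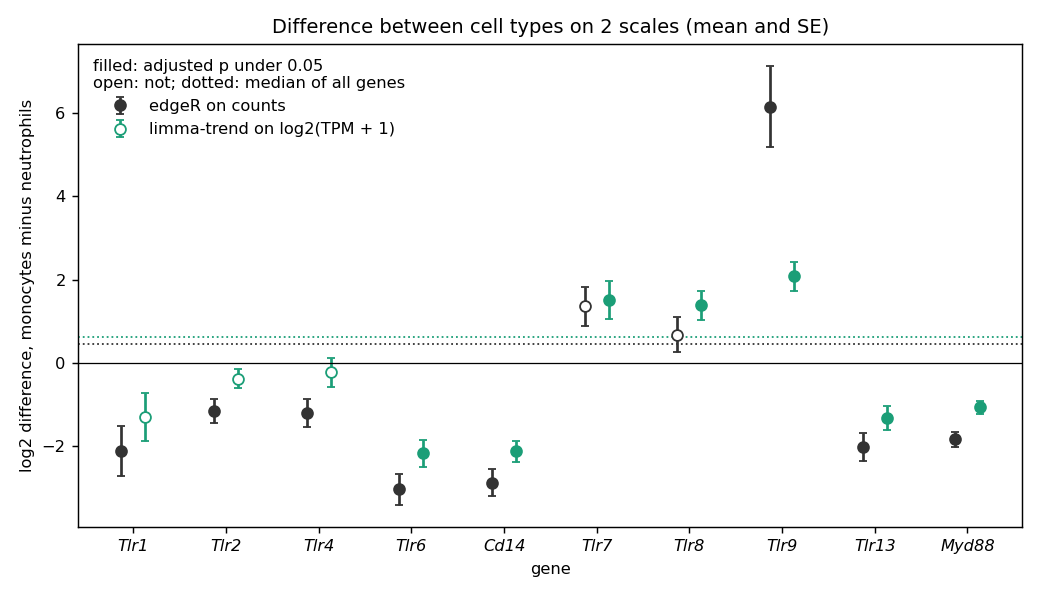
Log2 difference of monocytes minus neutrophils for each gene, with its SE, from edgeR on counts (dark) and limma-trend on log2(TPM + 1) (green). Filled points have an adjusted p under 0.05 and dotted lines are the medians of all genes, 0.46 and 0.62. Tlr6, Cd14, Tlr13, Myd88 and Tlr9 are filled on both scales, Tlr9 as a description only.

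The TPM of Tlr7 rested in part on a short transcript. Tlr7-206, an annotated processed transcript of 261 bases, has an effective length of 44.1 to 54.8 bases, so a few reads weigh heavily in TPM. It received 1 to 18.6 estimated counts in neutrophils and 5 to 20.1 in monocytes, yet made up 35.2% to 83.1% and 29.1% to 64.0% of the TPM of Tlr7. In neutrophil TN1 tag_482 it gave 42.0 of the 50.6 TPM. Over transcripts of 1000 bases or more Tlr7 was at 2.97 to 8.53 TPM in neutrophils and 14.0 to 44.2 TPM in monocytes, without overlap. Tlr8 over such transcripts was at 5.47 to 13.4 TPM in neutrophils and 13.1 to 37.8 TPM in monocytes, where neutrophil TN2 tag_1341 and monocyte TN1 tag_482 overlapped. With edgeR on those transcripts the log2 difference was 1.42 for Tlr7 (adjusted p = 0.0596) and 0.69 for Tlr8 (adjusted p = 0.283). Shorter transcripts also entered the TPM of Tlr8, which was at 16.1 to 65.3 TPM in monocytes over all transcripts. Tlr4-204, of 646 bases, gave 41.8% of Tlr4 TPM in monocyte TN2 tag_1341. There Tlr4 was at 46.3 TPM over all transcripts and 26.9 TPM over the longer ones. The limma-trend results above rest on TPM over all transcripts.

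**Figure D3:**
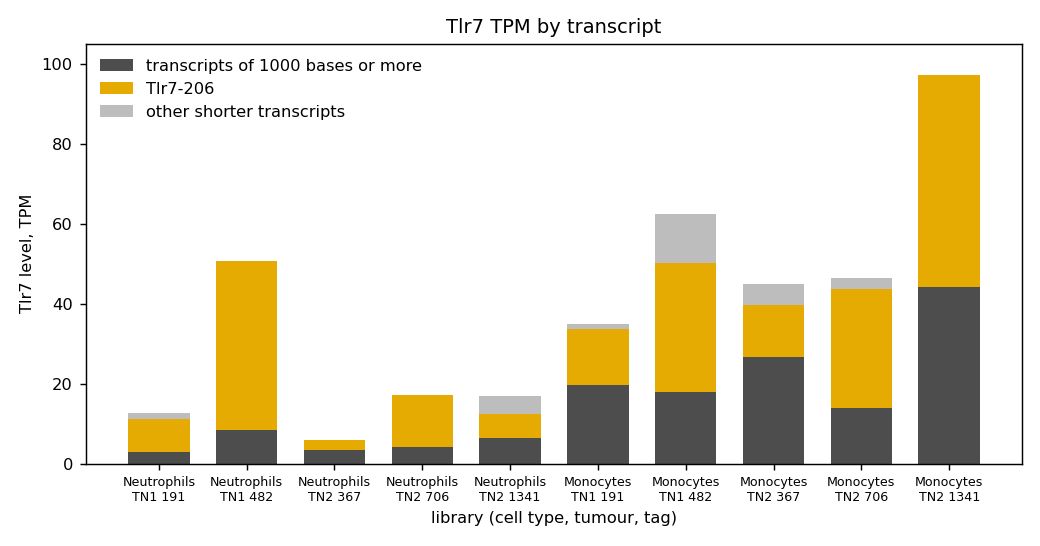
TPM of Tlr7 in each library, stacked by transcript. The short transcript Tlr7-206 takes 29.1% to 83.1% of the bar, while the longer transcripts alone reach 2.97 to 8.53 TPM in neutrophils and 14.0 to 44.2 TPM in monocytes.

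Shares within a library describe the make-up of the receptor transcripts without a scaling between libraries. Of the summed TPM of the 8 receptors over transcripts of 1000 bases or more, Tlr2 took 47.8% to 59.1% in neutrophils and 56.8% to 68.2% in monocytes. Tlr13 took 21.5% to 32.2% and 12.5% to 23.7%. Tlr6 took 6.11% to 12.2% in neutrophils and 1.27% to 6.21% in monocytes, with the tag_482 libraries at the end nearest to the other cell type in each. Tlr7, Tlr8 and Tlr9 together took 1.20% to 3.73% in neutrophils and 8.94% to 13.3% in monocytes, without overlap. Over all transcripts they took 2.81% to 11.02% in neutrophils and 18.1% to 22.2% in monocytes, and the setting of 1000 bases was chosen after seeing the data. The 4 endosomal receptors together took 22.7% to 35.9% and 21.5% to 36.9%, nearly the same range in both cell types. These shares are a description of the 10 libraries, and no test was made of them.

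**Figure D4:**
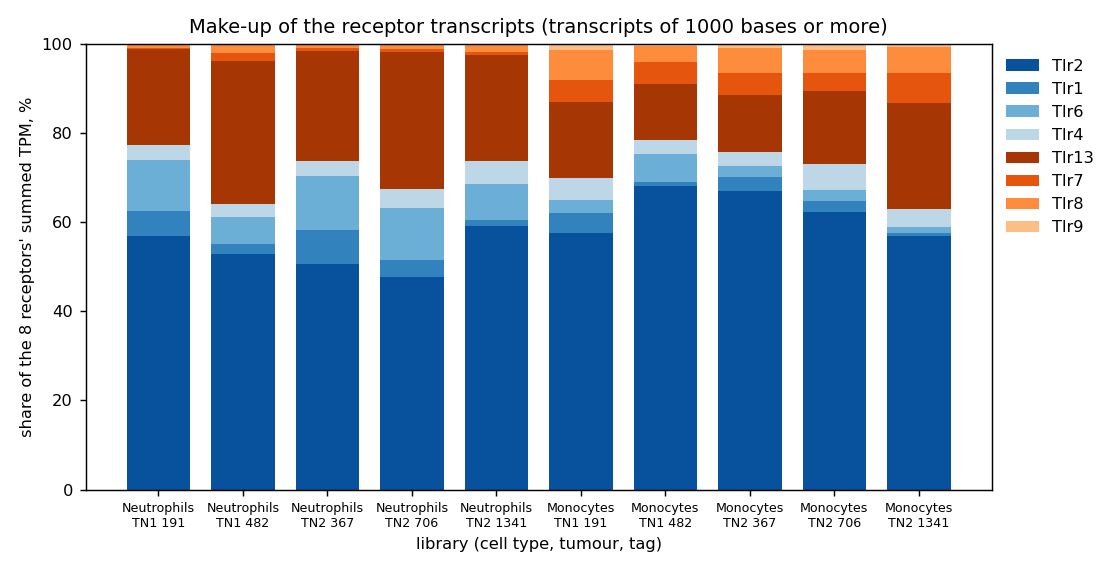
Share of each receptor in the summed TPM of the 8 receptors (transcripts of 1000 bases or more), 1 bar for each library. Tlr2 is the largest part of every bar, and Tlr7, Tlr8 and Tlr9 together are 1.20% to 3.73% in neutrophils and 8.94% to 13.3% in monocytes.

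The second question was whether the tumour carried by the mouse, low metastatic TN2 or highly metastatic TN1, went with a difference in these genes. In neutrophils edgeR called 0 of 13384 genes (0%) at an adjusted p under 0.05, with 625 genes at an unadjusted p under 0.05, while DESeq2 called 87 and limma-voom 0. None of the 10 genes was called by any setting tried, and their smallest adjusted p over all settings was 0.0756. Tlr9 and Myd88, 2 of the 10, were higher in every TN2 than in every TN1 neutrophil library, where 11.8% of all genes had that order and 5.91% the reverse. The median log2 difference was 0.31 for the 10 genes and 0.22 for all genes.

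The values for single genes that follow were picked after the levels had been seen. Myd88 was at 486 and 532 CPM in TN1 and 654 to 881 CPM in TN2 neutrophils, a log2 difference of 0.56 ± 0.25 (SE, edgeR adjusted p = 0.943). The authors' deposited table gave Myd88 a p of 0.0321 and an adjusted p of 1 in neutrophils, the smallest p it lists for the 10 genes. Tlr4 had a log2 difference of 0.88 ± 0.48 (SE, edgeR adjusted p = 0.943), which was 0.49 without neutrophil TN2 tag_1341, the library with the highest Ccr2 and F13a1, and 1.30 without neutrophil TN1 tag_191. Tlr9 had 0 counts in the TN1 and 6 to 12 counts in the TN2 libraries. The pooled TN2 level was at least 6.09-fold higher, against a floor of 3 counts over the TN1 libraries, and the edgeR adjusted p was 0.943. Tlr4 and the other 7 genes overlapped between the tumours in neutrophils.

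In monocytes edgeR also called 0 of 13384 genes (0%), with 379 at an unadjusted p under 0.05, while DESeq2 called 22 and limma-voom 0. The 10 genes had a smallest adjusted p of 0.315 over all settings. In CPM 7.73% of all genes were lower and 12.4% higher in every TN2 than in every TN1 monocyte library. Of the 10 only Tlr6 did not overlap in CPM, at 21.7 and 46.8 in TN1 against 20.4, 11.9 and 12.6 in TN2. Its log2 difference was -1.19 ± 0.48 (SE, edgeR adjusted p = 1) and -0.58 without monocyte TN1 tag_482, in which Tlr1 was at its lowest. The median log2 difference of the 10 genes in monocytes was 0.14, against 0.22 for all genes. In TPM Tlr6 overlapped, with a lowest TN1 value of 12.431 and a highest TN2 value of 12.987. Myd88 did not overlap in TPM, at 117 and 124 in TN1 against 164, 176 and 160 in TN2 monocytes. Its edgeR log2 difference was 0.13 ± 0.25 (SE). On log2(TPM + 1) the authors' table gave Myd88 0.46 in monocytes (p = 0.0548, test not given) and 0.47 in neutrophils. The medians of all genes on that scale were 0.39 and 0.07 (limma-trend).

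Whether the tumour difference itself differed between the cell types was tested with the interaction term. It called 0 of 13384 genes (0%) with edgeR, with 472 at an unadjusted p under 0.05, while DESeq2 called 21 and limma-voom 0. Of the 10 genes, Tlr6 (-1.63 ± 0.69, SE) and Tlr9 had the smallest p-values, and the edgeR adjusted p of both was 0.9999. The value of Tlr6 was -0.92 without monocyte TN1 tag_482 and -0.44 without both tag_482 libraries. For Tlr9 the fit rests on the TN1 neutrophil libraries at 0, and the sign turned with limma-trend on log2(TPM + 1), to 0.10.

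**Figure D5:**
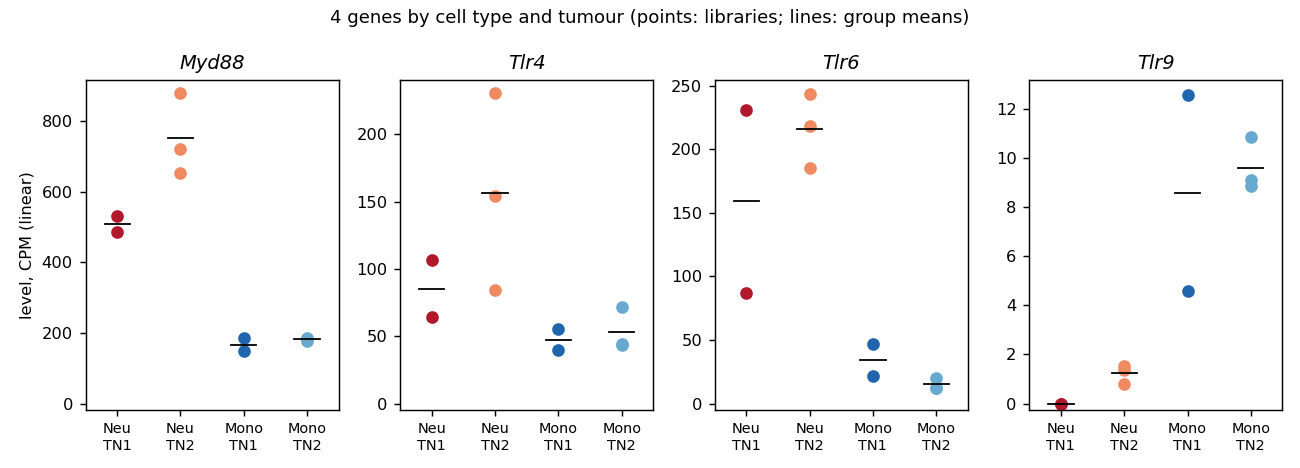
CPM of Myd88, Tlr4, Tlr6 and Tlr9 by cell type and tumour on linear axes, with a point for each library and a line for the group mean; both TN1 neutrophil points of Tlr9 lie at 0. Myd88 lies at 486 and 532 CPM in TN1 and 654 to 881 CPM in TN2 neutrophils, and at 148 to 187 CPM in all monocytes.

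The 4 receptors outside these 10 genes were low. Tlr11 had 0 counts in all 5 neutrophil libraries and 38 and 0 (TN1) and 74, 2 and 43 (TN2) counts in monocytes, at least 32.8-fold higher against a floor of 3 counts over the neutrophil libraries. It passed the filter on low counts only through its monocyte libraries, so its edgeR call is a description only. Tlr5, the flagellin receptor, was at 0 to 6.97 CPM in neutrophils and 0 to 26.8 CPM in monocytes (edgeR adjusted p = 0.328), with both tag_482 libraries at 0. Tlr3, the receptor for double-stranded RNA, was at 0 to 1.88 CPM in neutrophils and 0 to 13.4 CPM in monocytes (edgeR adjusted p = 0.413). Tlr12 had 7 counts in monocyte TN2 tag_367 and 0 in the other 9 libraries, and was not tested.

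The rest of the pathway was taken from lists of co-receptors and trafficking factors, adaptors and kinases, transcription factors, inhibitors and induced genes. With those 4 receptors the lists name 83 genes, of which 78 were tested. Of these, 13 were higher and 22 lower in monocytes (edgeR), against 15.5% higher and 12.4% lower of all genes tested. The 13 include Tlr11, which passed the filter only through its monocyte libraries. Cd180 and Il12b are also among them, at neutrophil means of 0.553 and 0.0858 CPM, near the floor. Among the 22 lower genes Il12a was near the floor in monocytes, at a mean of 0.735 CPM and a TN1 mean of 0. The calls of these genes are descriptions only. The lists are described by these counts, and nothing is called particular to them. None was called in any comparison of the tumours, where 6 (neutrophils), 4 (monocytes) and 3 (interaction) had an unadjusted p under 0.05.

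Among co-receptors and trafficking factors 5 of 12 tested genes were higher in monocytes and 1 was lower (median log2 difference 0.62). Of all genes tested, 15.5% were higher and 12.4% lower. Lgmn, an endosomal protease that processes receptors of the endosome, averaged 164 ± 52.8 CPM over neutrophil and 789.6 ± 156 CPM over monocyte libraries (mean ± SD, n = 5 each, log2 difference 2.28). Hsp90b1, the chaperone needed to fold most Toll-like receptors, had a log2 difference of 2.35, and Ly86, which binds the TLR4-like protein CD180, one of 3.87 (22.4 ± 16.5 against 323 ± 107 CPM). Slc15a4, a lysosomal transporter, and Cd180, named because they complete the 5, were at 19.7 and 0.553 CPM in neutrophils and 40.3 and 8.79 CPM in monocytes. Slc15a3, another transporter of the lysosome, was the lower gene (713 ± 129 against 182 ± 58.1 CPM, log2 difference -1.95, adjusted p = 0.000492). Monocyte TN2 tag_706 held the most neutrophil marker transcripts and neutrophil TN2 tag_1341 the most Ccr2, and their part in these list counts was not tested.

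Of 22 adaptors and kinases 1 was higher and 3 were lower, with a median log2 difference of 0.13, against 15.5% and 12.4% of all genes tested, so the lower count is near the background and the higher count under it. Tirap, which bridges TLR2 and TLR4 to MYD88, averaged 299 ± 94.7 CPM over neutrophil and 21.9 ± 12.4 CPM over monocyte libraries (log2 difference -3.94 ± 0.47 SE, edgeR adjusted p = 0.000355). Pik3ap1, an adaptor that links the receptors to PI3 kinase, differed by -2.07, Traf3, an adaptor of the interferon branch, by -1.27, and Ikbkb, a kinase that releases NF-kB, by 0.98. The remaining 18 did not pass. Of the 6 transcription factors Rela, the p65 subunit of NF-kB, was lower (223 ± 19.4 against 83.5 ± 8.36 CPM, log2 difference -1.43) and Irf5 higher (log2 difference 0.94, edgeR adjusted p = 0.0460), whereas Rel (-0.62, adjusted p = 0.0725) and Irf7 (-0.87, adjusted p = 0.105) did not pass.

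Of 18 tested inhibitors monocytes had 9 lower and 2 higher, against 12.4% lower and 15.5% higher of all genes tested. The median log2 difference was -0.90, against 0.46 for all genes. Zc3h12a, an RNase that degrades cytokine transcripts, differed by -2.10, Nfkbia, which holds NF-kB in the cytoplasm, by -1.67 (5415 ± 2282 against 1618 ± 243 CPM), Trim30a by -1.61 and the ubiquitin ligase gene Rnf216 by -1.33. The higher ones, named because they are the only 2, were the receptor tyrosine kinase genes Axl (9.89 ± 12.0 against 190.2 ± 46.2 CPM) and Mertk (1.87 ± 1.54 against 21.6 ± 25.8 CPM), and Mertk is also on the list of interstitial macrophage markers. The 10 markers of that list summed to 490.5 to 2420.3 TPM in monocytes, highest in TN2 tag_706, and to 34.7 to 121 TPM in neutrophils, and their part in the list count was not tested.

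Of 17 tested induced genes monocytes had 8 lower and 3 higher (median log2 difference -1.33). Of all genes tested, 12.4% were lower and 15.5% higher. The 8 lower genes include Il12a, near the floor in monocytes (mean 0.735 CPM). Il1b, the gene of interleukin-1 beta, averaged 25653 ± 5768 CPM over neutrophil and 2805 ± 1013 CPM over monocyte libraries (log2 difference -3.16 ± 0.35 SE, edgeR adjusted p = 0.000272). Nfkbiz, a nuclear cofactor of NF-kB, differed by -3.86, the chemokine gene Cxcl2 by -2.63 and Ptgs2, the inducible cyclooxygenase, by -2.71. The higher 3, named because they complete the count, were the cytokine genes Il6 (2.81 ± 2.43 against 49.0 ± 41.3 CPM), Il10 (3.04 ± 1.78 against 16.2 ± 6.04 CPM) and Il12b (0.0858 ± 0.192 against 6.17 ± 6.64 CPM).

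For each of the 10 genes the gene with the most similar profile was taken as the one with the smallest root mean square distance of mean-centred log2 CPM over the 10 libraries, among 13383 others. Cd14 was nearest to Ndel1 (distance 0.15) and Myd88 to Stx17 (0.15). Tlr2 was nearest to Chd7 (0.17), Tlr4 to Hipk1 (0.22), Tlr13 to Pira2 (0.22), Tlr8 to Trappc1 (0.24), Tlr7 to Tram1 (0.25) and Tlr6 to Gm4832 (0.39). Tlr9, nearest to Hspbp1 (0.50), and Tlr1, nearest to Snapc1 (0.51), had the most distant neighbours. No member of the 10 was the nearest gene of another.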

How the data were processed

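Per the labels' protocols, the authors extracted RNA with an RNeasy Micro Kit and made cDNA by Smart-seq2, a full-length method without molecular barcodes or strand, for Illumina sequencing. Reads went to kallisto 0.42.3 with the GRCm38 transcriptome, per the series' design text. Per the file headers, the deposited table of each library gives an estimated count, a TPM and an effective length (in bases, unit other) for each transcript. The authors' deposited comparison tables, made with AltAnalyze, give log2 group means, which for all 10 genes equalled the mean of log2(TPM + 1). The authors' deposited tables also give a p-value with and without adjustment, for which the test is not given in the sources used here.

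Transcripts were matched to GENCODE mouse release 21 (81839 of 85276, 96.0%) and summed to 29893 genes; the 3437 unmatched ones held 1.94% to 3.59% of counts and were left out. Rounded gene counts were fitted with edgeR 4.0.16 in R 4.3.3 as 4 group means over 10 libraries (filterByExpr with a minimum count of 10 and a minimum total of 15, TMM, quasi-likelihood F test, 6 residual degrees of freedom, 13384 genes). Benjamini-Hochberg adjustment ran over all genes tested, with a threshold of 0.05. The SE is the absolute log2 difference over the square root of F. CPM is relative to the TMM library size, and SD is over libraries. PCR copies stay in the counts, so floors of 3 counts cover counting error only. limma 3.58.1 and DESeq2 1.42.0 served as alternatives. The scripts were tested on simulated data with a smaller spread than these libraries (common biological coefficient of variation 0.887). That run therefore does not gauge recovery or false calls here.

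The 10 genes and all lists were chosen with earlier results of these data known. Named from each pathway list were the 4 genes with the smallest p between the cell types (and up to 3 past the threshold in each tumour comparison, of which there were none), and for each of the 10 genes its nearest profile. Settings restricted to transcripts of 1000 bases or more were chosen after seeing the data.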

Additional observations from a re-analysis of the deposited data

Results flagged for a closer look

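In each cell type the 5 libraries were checked for a library whose gap to its nearest neighbour exceeded 0.71 of the whole range (Dixon's 95% critical value), for CPM of the 10 genes, 20 checks in all, of which chance gives about 1 in 20. Among monocytes 3 stood out. Tlr6 was at 46.8 CPM in TN1 tag_482, where the next library was at 21.7 CPM and the lowest at 11.9 CPM. Tlr13 was at 379 CPM in TN2 tag_1341, where the next was at 192 CPM and the lowest at 125 CPM. Myd88 was at 148 CPM in TN1 tag_191, where the next was at 178 CPM and the highest at 187 CPM. No neutrophil library stood out in this way.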

How the results depend on the processing

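Between the cell types Tlr6, Cd14, Tlr13 and Myd88 kept their direction and their call under all 21 alternatives. Tlr1, Tlr2, Tlr4, Tlr7 and Tlr8 kept their direction. Tlr9 also kept both, but it passed the filter only through its monocyte libraries, so this supports nothing. The number of genes called was 3733 and was 5730 with limma-trend on log2(TPM + 1) and 2687 to 3854 with a library left out. The 1 member called higher became 2 with DESeq2, limma-voom or the tag number as a block, 3 with limma-trend on log2(TPM + 1) or log2(TPM + 0.1), and 1 to 2 with a library left out. The 7 called lower became 4 with either limma-trend scale and 4 to 7 with a library left out. Counts scaled from TPM by mean effective length left Tlr4 uncalled (adjusted p = 0.0881).

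In neutrophils the 0 genes called between tumours became 2 without a filter on low counts, 87 with DESeq2, 1 and 3 with limma-trend at pseudocounts of 1 and 0.1, and 0 to 508 with a library left out, the highest without neutrophil TN1 tag_191. In monocytes they became 22 with DESeq2 and 0 to 129 with a library left out, the highest without monocyte TN1 tag_191. For the interaction they became 1 without a filter, 21 with DESeq2 and 0 to 374 with a library left out, the highest without neutrophil TN1 tag_191 (68 without monocyte TN1 tag_191). No member was called in these comparisons under any alternative. The interaction of Tlr9 reversed to 0.10 with limma-trend on log2(TPM + 1). In the fit of neutrophil libraries alone Tlr9 did not pass the filter and has no value. The causes were not tested.

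Libraries of the 2 cell types with the same tag deviated with correlations of 0.089, 0.089, -0.057, 0.380 and 0.342 (tag_191, tag_482, tag_367, tag_706, tag_1341). The highest correlations with another tag of the same tumour were -0.089, -0.089, 0.165, -0.189 and 0.182. With only 2 TN1 libraries their deviations mirror each other, so both values of 0.089 are the same value. The labels do not say that a shared tag is a shared animal. These values do not settle it, and the main fit held no tag term. As a block, the tag gave 3335 genes between the cell types, called Tlr7 (1.43, adjusted p = 0.0375) and left the interaction at 0.

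Depth limits Tlr9, for which no neutrophil library had more than 12 counts. Small groups of 2 or 3 libraries limit every comparison of the tumours.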
